A study of Homo sapiens with 10 samples.

Results

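The BCL2 family is described here through 10 of its genes, which decide between survival and death of the cell: the survival genes BCL2, BCL2L1, BCL2L2 and MCL1, the BH3-only genes BCL2L11, BID, BIK, BMF and BAD, and the effector BAK1. They were picked by gene symbol, and all 10 were present among the 26256 genes counted in the untreated cells and among the 55736 genes counted in the Nutlin-3a experiment. RNA was sequenced from MCF10A, an immortalized human breast epithelial line that does not form tumors, and from G12V cells, which are MCF10A cells that carry an introduced HRas oncogene with the G12V change (H-RAS Gv12 in the labels). G12V cells were made by lentiviral transduction together with a GFP vector, were selected with hygromycin, and went through a growth arrest before they resumed growth. The labels call the MCF10A cells of this comparison parental, so the oncogene cannot be told apart from the vectors, the selection and the time in culture. In a second experiment, MCF10A cells without the oncogene received 10 µM Nutlin-3a or its solvent DMSO for 4 h. Nutlin-3a is a small molecule that frees the tumor suppressor p53 from MDM2, the protein that marks p53 for degradation. There were 2 replicates each of MCF10A and G12V cells and 3 replicates each of DMSO and Nutlin-3a. The study calls its RNA-seq replicates biological without saying whether each came from its own culture, and the p-values measure the spread between these libraries.

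Proteins of the BCL2 family control whether the outer membrane of the mitochondrion is opened. The effectors BAK and BAX form pores through which cytochrome c leaves and caspases are activated, survival proteins such as BCL-2, BCL-XL and MCL-1 hold the effectors in check, and BH3-only proteins bind the survival proteins or switch on the effectors. In breast epithelium the BH3-only proteins BIM and BMF are known for their part in the death of cells that lose contact with the matrix, and signaling through Ras and ERK is known to mark BIM for degradation. RNA levels do not show these protein steps.

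Libraries held 21538593 to 23683975 counted reads in the untreated cells and 15453226 to 17378734 in the Nutlin-3a experiment. After genes with low counts were removed, 14376 and 13529 genes were tested with edgeR's quasi-likelihood test, and a gene counts as differentially expressed (DE) where its log2 fold change exceeded 0.5 in size at a Benjamini-Hochberg adjusted p under 0.05. Levels are given as CPM, that is, read counts set to a common library size with the TMM factors of edgeR. HRAS itself went from 69.3 ± 4.77 CPM in MCF10A to 573 ± 82.0 CPM in G12V cells (SD, n = 2 each), and the p53 targets MDM2 and CDKN1A were higher by 2.54 and 2.16 on the log2 scale after Nutlin-3a. The cells were checked against 7 epithelial markers, whose summed level was 6736 and 8202 CPM in MCF10A but 1363 and 1662 CPM in G12V cells. KRT5, KRT14, KRT17, EPCAM and CDH1 were DE and lower, with KRT14 at 0.110, KRT17 at 0.992, CDH1 at 0.481 and EPCAM at 6.72 CPM on average in G12V cells, while KRT5 still stood at 1078 CPM. The other 2 were not DE: KRT8 averaged 195 CPM in MCF10A and 222 CPM in G12V cells (adjusted p = 0.661, edgeR), and KRT18 averaged 334 and 204 CPM (adjusted p = 0.0684). Of 6 markers of blood, endothelium and fibroblasts, PTPRC and CD3E were at 0 in both G12V libraries and had at most 1 read in an MCF10A library, CDH5 had 0 to 16 reads, PDGFRB 9 to 21, PECAM1 37 to 82 and COL1A1 76 to 254 over the 4 libraries, and the summed level of the 6 in the untreated cells stayed between 7.18 and 13.7 CPM. The lower level of these 5 epithelial markers moves with every difference between G12V and MCF10A below, and its part in them was not tested. In bulk RNA, fewer cells that express a gene and less RNA per cell cannot be told apart.

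The first question was how the introduced oncogene went with the expression of survival and death genes. Of the 10 members, 4 were DE between G12V and MCF10A, where 11.0% of all tested genes were DE. BCL2L1 and BID were higher in G12V cells, beside 5.01% of all genes, and BIK and BMF were lower, beside 5.95% of all genes. The level in both G12V libraries lay on one side of both MCF10A libraries for each of the 10 members, which was so for 54.8% of all genes. The size of the log2 fold change had a median of 0.97 over the members and 0.36 over all genes tested, while the median signed change was -0.20 and -0.001. Other tests called more members: DESeq2 and edgeR's exact test each called 6, beside 14.4% and 17.6% of all genes, and 6 had an unadjusted p under 0.05, beside 25.6% of all genes. When MCF10A replicate 1 was left out, which leaves a single MCF10A library that is taken to vary like the G12V libraries, 0 of all tested genes were DE by edgeR's quasi-likelihood test and 2830 had an unadjusted p under 0.05, so no member call stood without that library.

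**Figure D1:**
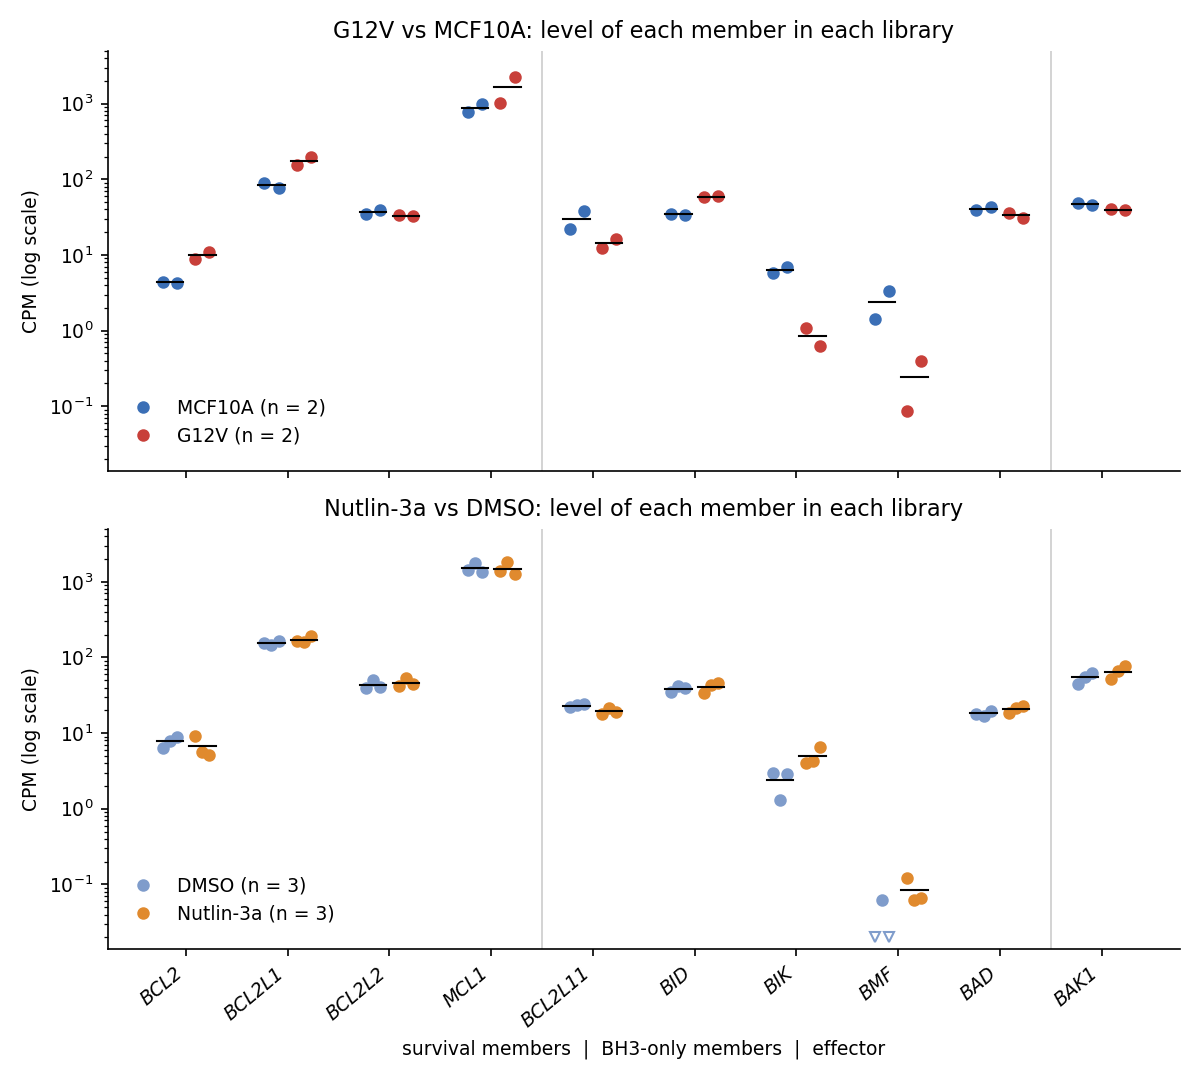
Level of the 10 members in each library, in CPM on a logarithmic axis. Each point is a library, the black line is the group mean, and an open triangle at the bottom marks a library with 0 reads, in which case no mean is drawn. In the upper panel BIK falls from 5.73 and 7.003 CPM in MCF10A to 1.07 and 0.624 CPM in G12V cells, and in the lower panel BMF is close to 0 in all 6 libraries.

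BCL2L1 encodes BCL-XL, the survival protein that guards the mitochondrion of many epithelial cells, and its shorter splice form BCL-XS promotes death, a distinction that counts per gene do not make. The gene lies on chromosome 20 from 30252261 to 30310656 on the minus strand (hg19). BCL2L1 reads numbered 1963 and 1754 for MCF10A against 3564 and 4436 for G12V cells, which are 89.2 and 77.3 CPM against 152 and 198 CPM. Both G12V libraries were above both MCF10A libraries, and the 2.104-fold rise is 1.07 on the log2 scale (SE 0.21, 95% interval 0.56 to 1.59, adjusted p = 0.0277, edgeR). The call was lost without MCF10A replicate 1, MCF10A replicate 2 or G12V replicate 2, with edgeR adjusted p of 0.153, 0.101 and 0.0691, although the change stayed between 0.87 and 1.25 on the log2 scale whichever library was left out. ABALON, a gene on the opposite strand within BCL2L1, had 61 and 47 reads in MCF10A against 179 and 234 in G12V cells, and the strand setting of the counting is not given in the sources used here, so reads of the pair may be mixed. The 250 bases before the RefSeq start of BCL2L1 are shown because the gene is the DE survival member (chr20:30310672-30310921, GRCh37, minus strand, with no match to the motifs searched):
BCL2L1: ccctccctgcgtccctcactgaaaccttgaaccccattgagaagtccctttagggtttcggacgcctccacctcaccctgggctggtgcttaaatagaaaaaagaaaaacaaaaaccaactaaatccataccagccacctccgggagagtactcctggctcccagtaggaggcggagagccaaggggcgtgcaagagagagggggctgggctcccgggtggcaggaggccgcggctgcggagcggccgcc
These bases were searched on both strands for the AP-1 site TGANTCA, the ETS site CCGGAAG, the FOXO site GTAAACA and the p53 decamer, since Ras signaling acts on the first 3 of these factor families and Nutlin-3a on p53. The p53 decamer is only a part of a full p53 site. Of 35116 upstream windows of the same length in the RefSeq promoter table (GRCh38.p14), 6.57% held the AP-1 site, 8.52% the ETS site, 2.98% the FOXO site and 5.57% the p53 decamer. The table held 7 of the 10 members, without MCL1, BCL2L2 and BIK. BCL2L1, BID, BMF and BAD had several RefSeq starts, and all their windows were searched. For these genes the window shown is that nearest the gene start given with the counts of the untreated cells. The percentages are per window, whereas a member was counted if any of its windows matched. No match in a member overlapped another motif, and matches are a description of letters and not of binding.

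BCL2, the founding survival gene of the family, lies on chromosome 18 from 60790579 to 60986613 on the minus strand (hg19). BCL2 reads numbered 98 and 96 for MCF10A against 208 and 247 for G12V cells, or 4.45 and 4.23 CPM against 8.89 and 11.0 CPM. The groups did not overlap, and the log2 fold change was 1.196 (SE 0.30, 95% interval 0.47 to 1.92), but the adjusted p of edgeR's quasi-likelihood test was 0.0555. BCL2 was therefore not DE, though its interval lay above 0. DESeq2 and edgeR's exact test called it, with adjusted p of 0.0101 and 0.00983, and so did the quasi-likelihood test with library totals alone (0.0470), with a filter of 1 CPM in 2 libraries (0.0484) and without G12V replicate 1 (0.0440). The log2 fold change of BCL2 lay between 1.03 and 1.34 whichever library was left out.

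MCL1 encodes a short-lived survival protein that is rapidly made and degraded, and lies on chromosome 1 from 150547027 to 150552214 on the minus strand (hg19). It had 784 and 977 CPM in MCF10A and 1030 and 2259 CPM in G12V cells. Replicate 2 of G12V stood far above the other 3 libraries, and replicate 1 of G12V was close to the higher MCF10A library. The log2 fold change was 0.90 (SE 0.41, 95% interval -0.11 to 1.91, adjusted p = 0.245, edgeR), and it was 0.22 without G12V replicate 2 and 1.36 without G12V replicate 1. BCL2L2, which encodes the survival protein BCL-W, lies on chromosome 14 from 23775971 to 23780968 on the plus strand (hg19), and had 34.8 and 39.1 CPM in MCF10A and 33.7 and 32.5 CPM in G12V cells. The log2 fold change of -0.16 (95% interval -0.64 to 0.32, adjusted p = 0.695, edgeR) did not pass the test, and the interval allows changes of either sign. Of the survival genes, 1 of 4 was DE and the other 3 were not.

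BIK, the founding BH3-only gene, encodes a protein of the endoplasmic reticulum, and lies on chromosome 22 from 43506754 to 43525718 on the plus strand (hg19). The 2 MCF10A libraries held 126 and 159 BIK reads and the G12V libraries 25 and 14. Both G12V libraries were far below both MCF10A libraries, at 0.847 ± 0.314 CPM against 6.36 ± 0.902 CPM (SD, n = 2 each). The level was 7.46-fold lower, or -2.90 on the log2 scale (SE 0.42, 95% interval -3.92 to -1.88, adjusted p = 0.0110, edgeR). This was the smallest adjusted p among the 10 members. Without MCF10A replicate 1 the adjusted p was 0.117 (edgeR) at a log2 fold change of -3.01, and the call held when any of the other 3 libraries was left out.

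BMF encodes a BH3-only protein that is held at the actin cytoskeleton until cells detach, and lies on chromosome 15 from 40380091 to 40401085 on the minus strand (hg19). BMF reads numbered 31 and 75 for MCF10A against 2 and 9 for G12V cells. The groups did not overlap, yet replicates of either group differed widely from each other, at 1.41 and 3.30 CPM in MCF10A and 0.0855 and 0.401 CPM in G12V cells. The level was 9.57-fold lower, or -3.26 on the log2 scale (SE 0.77, 95% interval -5.14 to -1.38, adjusted p = 0.0495, edgeR). The call lay at the threshold and was lost with relative log expression factors (adjusted p = 0.0510, edgeR), with no filter on low counts (0.0565), without MCF10A replicate 1 (0.153) and without MCF10A replicate 2 (0.124). Whichever library was left out, the log2 fold change of BMF stayed between -4.70 and -2.52. The 250 bases before its RefSeq start are shown as those of the member with the largest fitted fall (chr15:40401081-40401330, GRCh37, minus strand, with no match to the motifs searched):
BMF: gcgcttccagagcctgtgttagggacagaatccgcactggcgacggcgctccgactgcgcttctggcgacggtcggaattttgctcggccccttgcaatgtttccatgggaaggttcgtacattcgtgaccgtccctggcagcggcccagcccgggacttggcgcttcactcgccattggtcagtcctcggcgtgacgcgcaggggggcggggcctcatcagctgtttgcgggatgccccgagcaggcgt

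BCL2L11 encodes BIM, which binds all survival proteins and can activate the effectors, and lies on chromosome 2 from 111878491 to 111926022 on the plus strand (hg19). MCF10A held 483 and 860 BCL2L11 reads and G12V cells 293 and 368, or 21.95 and 37.9 CPM against 12.5 and 16.4 CPM. The groups did not overlap, with MCF10A replicate 2 far above the rest. The log2 fold change was -1.05 (SE 0.33, 95% interval -1.85 to -0.24, adjusted p = 0.106, edgeR), which is not DE, and it was -0.60 without MCF10A replicate 2. DESeq2 and edgeR's exact test placed it below the threshold, with adjusted p of 0.0365 and 0.0375. BCL2L11 was the only one of the 7 members in the promoter table whose upstream window held the FOXO site, a site for factors that are known to act on this gene, and the window is shown with the match in capitals, which starts at base -223 from the start (chr2:111878241-111878490, GRCh37, plus strand):
BCL2L11: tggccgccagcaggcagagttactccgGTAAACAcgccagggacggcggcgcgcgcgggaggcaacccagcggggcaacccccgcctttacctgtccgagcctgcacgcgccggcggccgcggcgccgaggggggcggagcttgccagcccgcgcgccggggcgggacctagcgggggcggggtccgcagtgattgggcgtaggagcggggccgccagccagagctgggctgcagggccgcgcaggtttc

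BID, the BH3-only protein that caspase-8 cuts to link death receptors to the mitochondrion, lies on chromosome 22 from 18216906 to 18257431 on the minus strand (hg19). MCF10A held 764 and 774 BID reads and G12V cells 1350 and 1330. Replicates were nearly equal in both groups, at 34.4 ± 0.448 CPM in MCF10A and 58.5 ± 1.13 CPM in G12V cells (SD, n = 2 each), and the groups lay far apart. The rise was 1.70-fold, or 0.77 on the log2 scale (SE 0.18, 95% interval 0.33 to 1.202, adjusted p = 0.0474, edgeR). BID thus went the other way from BIK and BMF. The change stayed between 0.75 and 0.80 on the log2 scale whichever library was left out, but the call was lost each time, with edgeR adjusted p of 0.216 and 0.233 without replicate 1 and 2 of MCF10A and 0.0840 and 0.127 without replicate 1 and 2 of G12V, and it was lost with no filter on low counts (0.0661). The 250 bases before the RefSeq start of BID are shown as those of the BH3-only member that rose (chr22:18257432-18257681, GRCh37, minus strand, with no match to the motifs searched):
BID: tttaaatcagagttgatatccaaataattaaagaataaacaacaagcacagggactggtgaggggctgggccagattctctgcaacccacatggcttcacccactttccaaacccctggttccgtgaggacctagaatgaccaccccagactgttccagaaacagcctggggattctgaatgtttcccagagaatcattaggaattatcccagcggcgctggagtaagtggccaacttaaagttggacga

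BAD, the BH3-only protein that growth factor kinases switch off by phosphorylation, lies on chromosome 11 from 64037300 to 64052176 on the minus strand (hg19). It had 39.3 and 42.5 CPM in MCF10A and 35.6 and 30.9 CPM in G12V cells, which is -0.30 on the log2 scale (95% interval -0.79 to 0.19, adjusted p = 0.427, edgeR). BAK1, whose product BAK forms the pores, lies on chromosome 6 from 33540323 to 33548070 on the minus strand (hg19), and had 48.3 and 46.3 CPM in MCF10A and 40.5 and 39.0 CPM in G12V cells, which is -0.25 on the log2 scale (95% interval -0.69 to 0.19, adjusted p = 0.468, edgeR). Neither gene passed the test, and both intervals leave room for a small change. BAD shares its locus with GPR137 on the opposite strand, which had 628 and 782 reads in MCF10A against 553 and 544 in G12V cells, so reads of the pair may be mixed. Of the 5 BH3-only genes, 2 were DE and lower, 1 was DE and higher, and 2 were not DE.

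**Figure D2:**
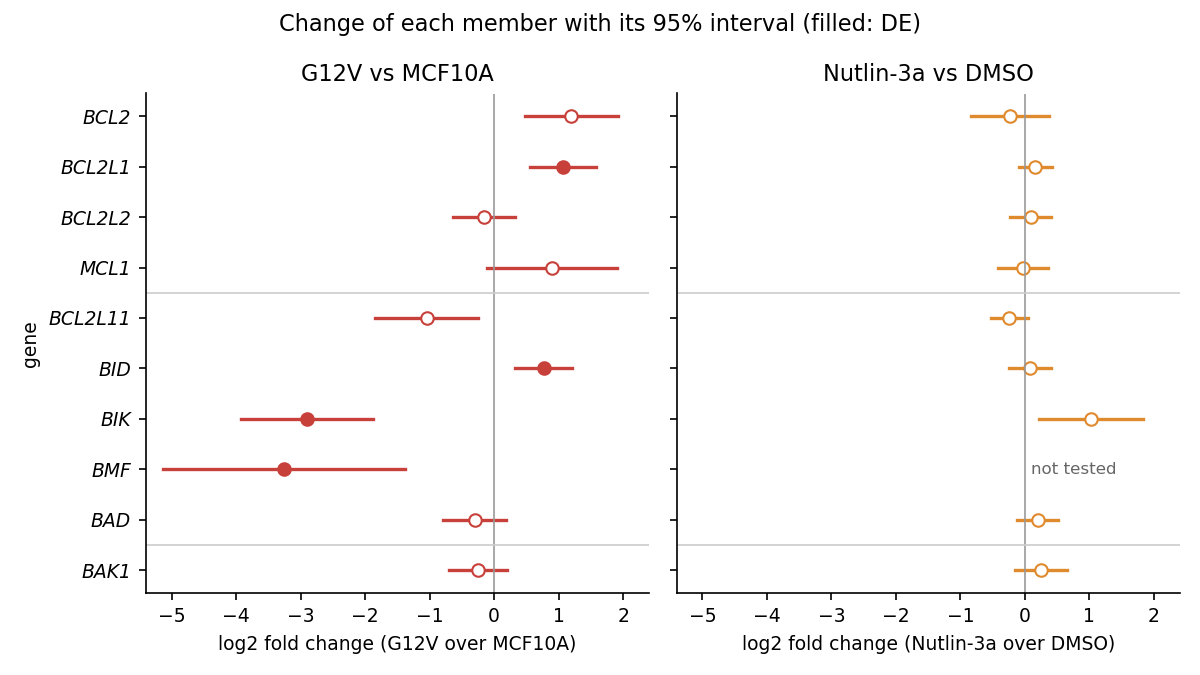
Log2 fold change of each member in both comparisons, with the 95% interval of edgeR's quasi-likelihood fit as a bar. Filled points are DE and open points are not: BCL2L1, BID, BIK and BMF are filled on the left, none is filled on the right, and the intervals on the right are within 1.83 of 0.

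**Figure D3:**
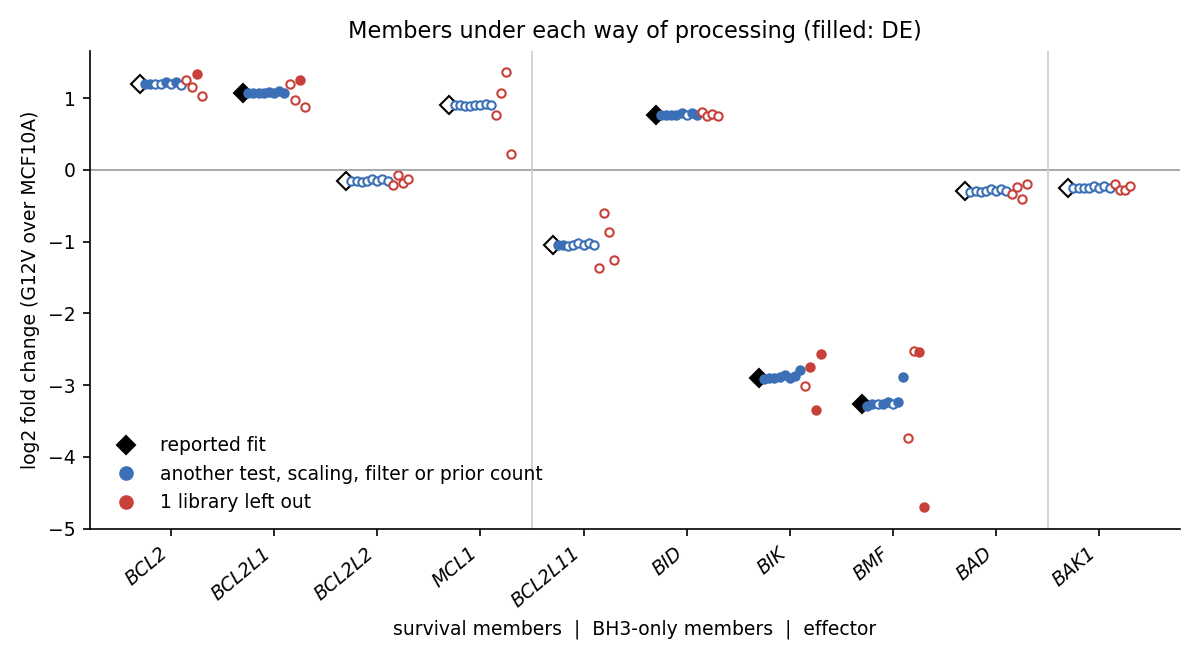
Log2 fold change of each member between G12V and MCF10A in the reported fit (diamonds), with another test, scaling, filter or prior count (blue) and with 1 library left out (red). Filled points are DE. The blue points lie close to the diamonds, and the red points spread most for MCL1, from 0.22 to 1.36, and for BMF, from -4.70 to -2.52. The fit with the replicate block, which also called MCL1, BCL2 and BCL2L11, is not drawn.

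To compare members with each other, levels were divided by the exon length of each gene's canonical transcript and are given in CPM per kb. MCL1 had by far the highest level in every library, with 199 and 247 CPM per kb in MCF10A and 261 and 572 CPM per kb in G12V cells. It made up 61.6% of the summed level of the 10 members in MCF10A and 69.7% in G12V cells on average, with a range of 59.3% to 63.9% and of 62.4% to 77.1%. In MCF10A, BAD came next at 44.03 CPM per kb, before BCL2L1 at 32.3, BAK1 at 21.8, BID at 15.8 and BCL2L2 at 10.5 CPM per kb, and the libraries of neighbors in this order did not overlap. BIK at 6.69 and BCL2L11 at 5.87 CPM per kb overlapped, as did BCL2 at 0.631 and BMF at 0.502 CPM per kb, which were the lowest members. In G12V cells BCL2L1 stood in the place after MCL1 with 68.0 CPM per kb, followed by BAD at 35.8, BID at 26.9, BAK1 at 18.3 and BCL2L2 at 9.39 CPM per kb. The lower end of the order in G12V cells was BCL2L11 at 2.84, BCL2 at 1.45, BIK at 0.890 and BMF at 0.0519 CPM per kb, with no overlap between any neighbors. With the length of all exons of the gene in place of the canonical transcript, MCL1 stayed first and several neighbors changed places, as BAK1 did with BCL2L1 in MCF10A and with BID in G12V cells.

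Within a library, the balance between members needs no scaling between libraries. For each read of BCL2L11, which was not DE, there were 4.06 and 2.04 reads of BCL2L1 in MCF10A and 12.2 and 12.1 in G12V cells. The ratio of this pair was thus higher in both G12V libraries. Other BH3-only genes differ: BID rose along with BCL2L1, from 764 and 774 reads in MCF10A to 1350 and 1330 in G12V cells, while BIK and BMF fell. Between survival genes, there were 20.0 and 18.3 reads of BCL2L1 for each read of BCL2 in MCF10A and 17.1 and 18.0 in G12V cells, close to each other although the groups did not overlap. Per length, the 4 survival genes made up 72.8% and 74.6% of the summed level of the members in MCF10A and 79.2% and 88.9% in G12V cells, and the 5 BH3-only genes 20.6% and 19.9% against 16.4% and 8.69%. The summed level of the BH3-only genes itself was 68.8 and 77.0 CPM per kb in MCF10A and 68.5 and 64.4 CPM per kb in G12V cells, so their share was lower mainly as the sum over all members was larger, at 335 and 387 against 418 and 742 CPM per kb. BAD, which was not DE and whose reads may be mixed with those of GPR137, made up 61.4% and 59.5% of the BH3-only level in MCF10A and 56.0% and 51.6% in G12V cells. As MCL1 dominates these sums, they were also taken without it. BCL2L1 was then 25.4% and 21.4% of the summed level in MCF10A and 37.7% and 45.2% in G12V cells, and the BH3-only genes were 50.5% and 55.0% against 43.5% and 37.9%. These shares are given as a description with no test, since the smallest p that an exact permutation of 4 libraries in 2 groups allows is 0.333.

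**Figure D4:**
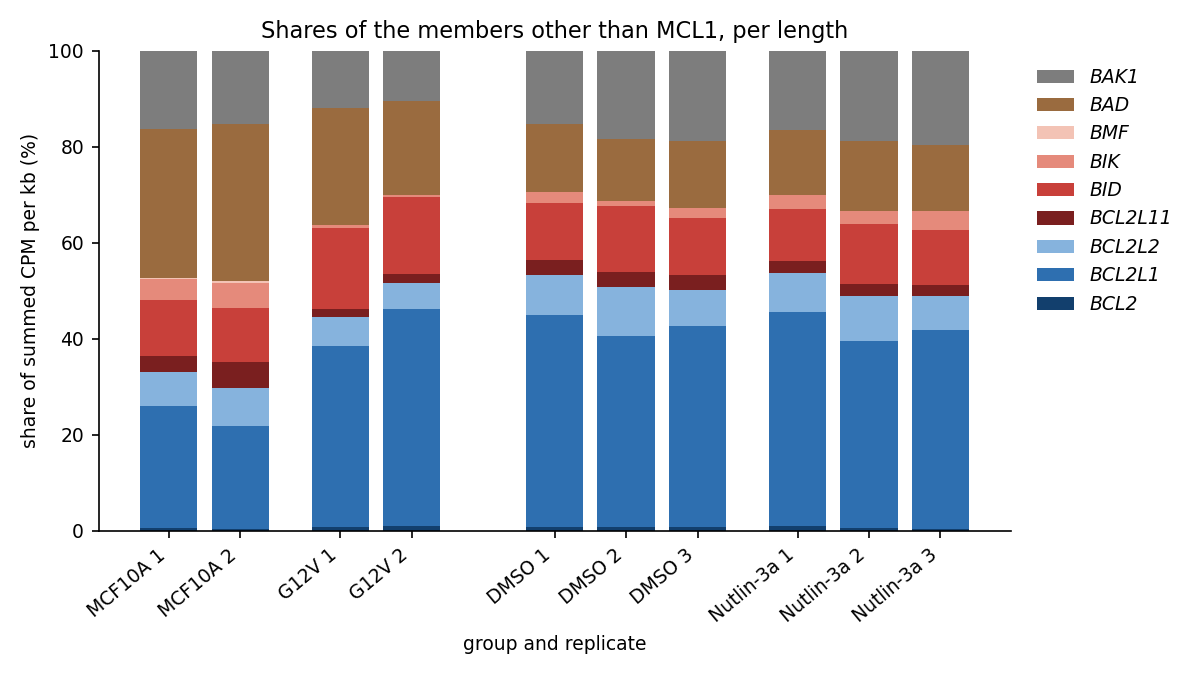
Share of each member other than MCL1 in their summed level, in percent of CPM per kb, with a bar for each library. BCL2L1 takes 25.4% and 21.4% in MCF10A, 37.7% and 45.2% in G12V cells, and 38.9% to 44.6% in the 6 libraries of the Nutlin-3a experiment.

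The members were then set beside the rest of the pathway. Of 12 other BCL2 family genes, 9 could be tested, and 2 of these were DE, beside 11.0% of all genes. PMAIP1, which encodes the BH3-only protein NOXA that binds MCL-1, had 10.2 and 12.8 CPM in MCF10A and 23.3 and 30.2 CPM in G12V cells. Both G12V libraries were above both MCF10A libraries, at 1.22 on the log2 scale (SE 0.26, adjusted p = 0.0365, edgeR), and the call was lost without MCF10A replicate 1 (0.222), MCF10A replicate 2 (0.0548) or G12V replicate 2 (0.0798). HRK, which encodes the BH3-only protein Harakiri, had 50 and 86 reads in MCF10A against 2 and 10 in G12V cells. It fell by 3.497 on the log2 scale (SE 0.70, adjusted p = 0.0302, edgeR), and the call was lost only without MCF10A replicate 1 (0.155). HRK and BMF thus had similar low counts and a similar fall. The effector BAX had 66.0 ± 5.43 CPM in MCF10A and 95.4 ± 10.2 CPM in G12V cells (SD, n = 2 each), 0.53 on the log2 scale with an adjusted p of 0.132 (edgeR), and BBC3, which encodes the BH3-only protein PUMA, had 5.45 and 16.6 CPM against 6.29 and 19.2 CPM, with overlapping groups.

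Among 17 genes of the mitochondrial pathway below the family, such as cytochrome c, the caspases and their inhibitors, 0 were DE between G12V and MCF10A by edgeR's quasi-likelihood test, beside 11.0% of all genes. In that test 1 had an unadjusted p under 0.05, beside 25.6% of all genes. DESeq2 and edgeR's exact test each called 1, beside 14.4% and 17.6% of all genes. This gene was BIRC3, an inhibitor of apoptosis, with 67.0 and 151 CPM in MCF10A and 270 and 489 CPM in G12V cells and an adjusted p of 0.0636 in the quasi-likelihood test. Among 10 genes of the death receptor arm that meets the family at BID, 0 were DE, beside 11.0% of all genes. An unadjusted p under 0.05 was found for 3, beside 25.6% of all genes. DESeq2 and the exact test each called TNFRSF10B and TNFRSF1A, beside 14.4% and 17.6% of all genes. Both receptor genes were higher in the G12V libraries, by 0.74 and 1.00 on the log2 scale, with edgeR adjusted p of 0.0814 and 0.0650. Of 17 regulators of the members, 1 was DE, beside 11.0% of all genes, namely PIM1, a kinase that phosphorylates BAD. PIM1 had 39.2 and 37.6 CPM in MCF10A and 6.20 and 10.5 CPM in G12V cells, a 4.601-fold lower level (-2.20 on the log2 scale, SE 0.31, adjusted p = 0.0101, edgeR) whose call was lost only without MCF10A replicate 1 (0.1255). The median log2 fold change was 0.21 over the other family genes, 0.13 over the mitochondrial genes, 0.12 over the death receptor genes and -0.10 over the regulators, beside -0.001 over all genes.

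**Figure D5:**
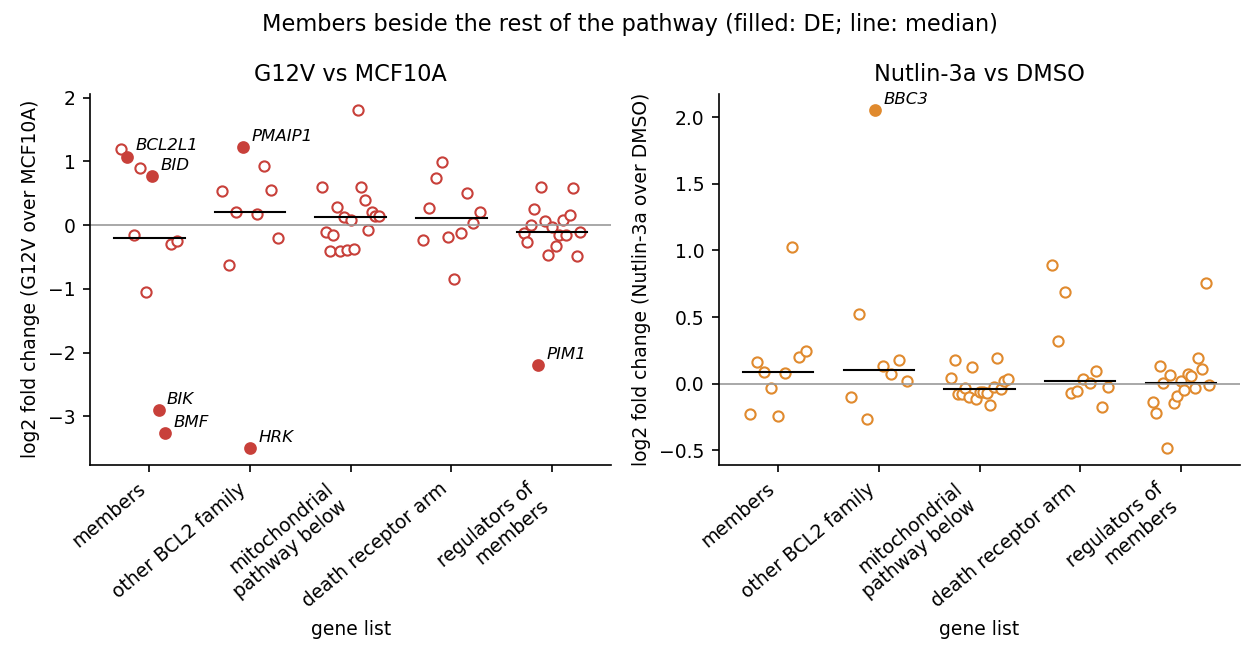
Log2 fold change of the members and of 4 lists of other pathway genes in both comparisons, where each point is a tested gene, the vertical scales of the panels differ, filled points are DE and the black line is the median of the list. On the left the points far from 0 are BIK, BMF, HRK and PIM1, and on the right BBC3 at 2.05.

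The second question was which members responded when p53 was freed by Nutlin-3a. Of the 10 members, 9 had enough reads to be tested, and 0 of these were DE by edgeR's quasi-likelihood test, where 0.170% of all genes were DE. DESeq2 and edgeR's exact test also called 0 members, beside 0.637% and 0.613% of all genes, and 1 member, BIK, had an unadjusted p under 0.05, beside 3.42% of all genes. The groups did not overlap for 2 of the 9, BIK and BCL2L11, beside 8.07% of all genes. The numbers of the replicates pair these libraries across treatments, as their shared deviations show, and when the replicate number entered the fit as a block 1 member was DE, beside 1.22% of all genes.

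BIK was this member. It had 54, 21 and 50 reads with DMSO and 65, 68 and 99 reads with Nutlin-3a, or 2.99, 1.29 and 2.92 CPM against 4.00, 4.22 and 6.51 CPM. All 3 Nutlin-3a libraries were above all 3 DMSO libraries, and each was above the DMSO library of its number. The log2 fold change was 1.03 (SE 0.35, 95% interval 0.22 to 1.83) with an unadjusted p of 0.0186 and an adjusted p of 0.9997 (edgeR), and with the replicate block it was 1.03 (SE 0.23) with an adjusted p of 0.0394 (edgeR). BIK, which was lower in G12V cells, was thus the member for which the Nutlin-3a call depends on the pairing. The change stayed between 0.73 and 1.21 on the log2 scale whichever library was left out of the fit without the block.

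BCL2L11 had 21.9, 23.2 and 24.3 CPM with DMSO and 18.1, 21.5 and 19.1 CPM with Nutlin-3a. All 3 treated libraries were below all 3 control libraries, by little, and the log2 fold change of -0.24 (95% interval -0.52 to 0.05, adjusted p = 0.9997, edgeR) did not pass the test. With the block the interval was -0.46 to -0.02, at an adjusted p of 0.356 (edgeR). Reads of BCL2L1 for each read of BCL2L11 were 7.05, 6.20 and 6.79 with DMSO and 9.14, 7.51 and 9.98 with Nutlin-3a. BAK1 had 44.7, 55.9 and 62.9 CPM with DMSO and 51.5, 65.9 and 76.3 CPM with Nutlin-3a. Each treated library was above the control library of its number, but the groups overlapped, and the log2 fold change of 0.24 (95% interval -0.16 to 0.65) had an adjusted p of 0.9997 without and 0.196 with the block (edgeR). The interval with the block was 0.07 to 0.41. BAK1P1, a pseudogene that resembles BAK1 in sequence, had 17 to 43 reads in these libraries. BAK1 was the only one of the 7 members in the promoter table with a p53 decamer, a part of a full p53 site, in its upstream window. The window is shown for this reason with the match in capitals, starting at base -73 from the start (chr6:33548054-33548303, GRCh37, minus strand):
BAK1: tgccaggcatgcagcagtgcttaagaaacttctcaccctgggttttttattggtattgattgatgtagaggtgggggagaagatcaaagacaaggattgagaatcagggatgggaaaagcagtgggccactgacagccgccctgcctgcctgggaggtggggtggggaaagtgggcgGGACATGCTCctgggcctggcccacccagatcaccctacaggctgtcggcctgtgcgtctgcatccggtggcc

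The survival genes showed no DE call after Nutlin-3a. BCL2L1 had 154, 144 and 165 CPM with DMSO and 166, 161 and 191 CPM with Nutlin-3a, and MCL1 had 1447, 1762 and 1338 CPM against 1384, 1812 and 1257 CPM. The groups overlapped for both genes. Without the block, the 95% intervals of the log2 fold change were -0.09 to 0.42 for BCL2L1 and -0.42 to 0.36 for MCL1. With the block they were 0.003 to 0.32 and -0.19 to 0.11. Each treated library was above the control library of its number for BCL2L1, whose adjusted p with the block was 0.413 (edgeR). BCL2 had 6.42, 7.98 and 8.98 CPM with DMSO and 9.24, 5.64 and 5.07 CPM with Nutlin-3a, so replicate 1 went up while replicates 2 and 3 went down. Its interval, -0.83 to 0.38, was the widest among the survival genes. BCL2L2 had 39.7, 50.2 and 41.2 CPM with DMSO and 41.7, 53.02 and 44.9 CPM with Nutlin-3a (interval -0.23 to 0.41), and BCL2L2-PABPN1, a readthrough gene on the same strand that shares its exons, had 2 to 9 reads. On the opposite strand over BCL2L2, HOMEZ had 188 to 235 and PPP1R3E 30 to 75 reads against 677 to 855 of BCL2L2, so reads of these genes may be mixed.

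BID had 34.5, 42.0 and 39.8 CPM with DMSO and 34.1, 43.6 and 45.4 CPM with Nutlin-3a, and BAD had 17.9, 17.0 and 19.8 CPM against 18.2, 21.6 and 23.0 CPM. The groups overlapped for both, with intervals of the log2 fold change of -0.24 to 0.41 for BID and -0.12 to 0.52 for BAD. GPR137, on the opposite strand at BAD, had 577 to 1061 reads against 277 to 349 of BAD, so reads of the pair may be mixed here too. BMF had 0, 1 and 0 reads with DMSO and 2, 1 and 1 reads with Nutlin-3a, which is at or under the floor of 3 counts in every library, so no fold is given and a change was not detectable at this depth. The size of the log2 fold change had a median of 0.20 over the 9 tested members and 0.10 over all genes tested.

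Elsewhere in the pathway, BBC3 responded. It had 5.59, 5.15 and 2.80 CPM with DMSO and 20.9, 19.0 and 16.4 CPM with Nutlin-3a. The groups lay far apart, and the rise was 4.15-fold, or 2.05 on the log2 scale (SE 0.26, adjusted p = 0.0303, edgeR), or 1.07e-05 with the replicate block. The adjusted p was 0.0306 without DMSO replicate 3 and between 0.0694 and 0.150 without any of the other 5 libraries. BBC3 was the 1 DE gene among 8 tested of the 12 other family genes, beside 0.170% of all genes. BAX had 73.0 ± 4.84 CPM with DMSO and 105 ± 6.44 CPM with Nutlin-3a (SD, n = 3 each), 0.52 on the log2 scale, with an adjusted p of 0.214 without and 0.00752 with the block (edgeR). Of the 17 mitochondrial genes, 0 were DE, beside 0.170% of all genes, and 0 had an unadjusted p under 0.05, beside 3.42% of all genes. DESeq2, edgeR's exact test and the block each called 0, beside 0.637%, 0.613% and 1.22% of all genes.

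Of the 10 death receptor genes, 0 were DE, beside 0.170% of all genes, and 2 had an unadjusted p under 0.05, beside 3.42% of all genes. DESeq2, the exact test and the fit with the block each called these 2, beside 0.637%, 0.613% and 1.22% of all genes. They are FAS and TNFRSF10B, which encode receptors that recruit caspase-8. FAS had 74.5 ± 12.2 CPM with DMSO and 138 ± 14.3 CPM with Nutlin-3a, higher by 0.89 on the log2 scale, with an adjusted p of 0.0806 without and 5.64e-05 with the block (edgeR). TNFRSF10B had 291 ± 43.3 and 471 ± 31.7 CPM (SD, n = 3 each), higher by 0.69, with an adjusted p of 0.187 without and 2.88e-04 with the block (edgeR). Both lay on the arm that leads to BID, whose own level did not pass the test. Of the 17 regulators, 0 were DE, beside 0.170% of all genes, and 1 had an unadjusted p under 0.05, beside 3.42% of all genes. This was FBXW7, a ubiquitin ligase subunit that targets MCL-1, with 38.2 ± 8.43 and 64.3 ± 1.89 CPM (SD, n = 3 each). The difference was 0.75 on the log2 scale, with an adjusted p of 0.288 without and 0.00278 with the block (edgeR). DESeq2 and the exact test also called FBXW7.

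The tables of the untreated cells and of the Nutlin-3a experiment were counted on different annotations and normalized separately, so levels are only set side by side. The order of members per length with DMSO was MCL1 at 384 CPM per kb, BCL2L1 at 59.9, BAK1 at 25.1, BAD at 19.6, BID at 17.8, BCL2L2 at 12.4, BCL2L11 at 4.53, BIK at 2.52, BCL2 at 1.13 and BMF at 0.00436 CPM per kb. BAK1 overlapped with BAD and BAD with BID, and the other neighbors did not overlap. With Nutlin-3a, BIK at 5.16 CPM per kb stood before BCL2L11 at 3.84, the 2 members that did not overlap between treatments, and the rest of the order was that of DMSO. MCL1 made up 72.6% of the summed level with DMSO and 69.6% with Nutlin-3a on average. The 4 survival genes made up 84.5% to 88.2% with DMSO, beside 72.8% and 74.6% in untreated MCF10A and 79.2% and 88.9% in G12V cells. BMF had 31 and 75 reads in untreated MCF10A and at most 1 read in a DMSO library, and HRK 50 and 86 against 1 to 5, although both experiments used MCF10A cells without the oncogene. BCL2A1, a survival gene known from blood cells, had at most 1 read in untreated MCF10A and 16, 50 and 35 reads with DMSO. PMAIP1 averaged 91.3 CPM with DMSO, above both untreated MCF10A (11.5 CPM) and G12V cells (26.8 CPM). With DMSO, BCL2L1 and MCL1 lay nearer their G12V means, 68.0 and 416 CPM per kb, than their untreated MCF10A means, 32.3 and 223. BIK lay between 6.69 in untreated MCF10A and 0.890 CPM per kb in G12V cells. BID and BCL2L11 lay nearer untreated MCF10A (15.8 and 5.87 CPM per kb) than G12V cells (26.9 and 2.84). The cause of these differences was not tested. The 7 epithelial markers summed to 3463 to 5931 CPM with DMSO and 3738 to 6390 CPM with Nutlin-3a.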

How the data were processed

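The 10 members and the lists of other pathway genes were chosen with earlier results of these data known. Per the labels and the study's methods, poly(A) RNA was read on an Illumina instrument, and the authors aligned reads with TopHat to hg19, counted them with HTSeq and deposited raw counts for each gene with no normalization. The strand setting, the annotations and the treatment of reads on overlapping genes are not given in the sources used here. Each comparison was fitted on all genes of its own table with edgeR 4.0.16 in R 4.3.3 (limma 3.58.1): filterByExpr, TMM factors and the quasi-likelihood F-test, with p-values adjusted by Benjamini-Hochberg over all genes tested. A prior count of 0.125 enters each log2 fold change, whose size divided by the root of F gives the SE, and intervals are 95% intervals of that fit. The genes named are every member, each DE gene of the lists, and HRAS, MDM2 and CDKN1A as checks of the labels; BAX, BBC3, BCL2A1, BIRC3, FAS, TNFRSF10B, TNFRSF1A and FBXW7 were named beyond this rule after their values were seen. Lengths came from GENCODE on GRCh37, and upstream sequences from RefSeq (GRCh38.p14), placed on GRCh37 by exact match. The fits were tested on simulated counts first. In the Nutlin-3a experiment, a DMSO and a Nutlin-3a library that share a number deviated together from their group means (r = 0.62, 0.60 and 0.64) while other pairs did not (r = -0.47 to -0.19), and the number was therefore read as a pairing. None of the libraries were identical or within sampling noise of each other. An exact permutation test cannot go below p = 0.333 with 2 against 2 libraries or 0.1 with 3 against 3, so single genes were tested in the fits over the whole table. The alternatives comprised DESeq2 1.42.0, the exact test of edgeR, other scaling factors and filters, a prior count of 2, the replicate block, the omission of each library and, chosen after seeing the data, the length of all exons. The floor of 3 counts and the intervals cover counting and library spread alone, as these reads carry no molecular identifiers. A marker gene that the list of other cell types held is not reported here.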

Additional observations from a re-analysis of the deposited data

How the results depend on the processing

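Over the 13 alternatives, the log2 fold changes of the 10 members between G12V and MCF10A kept their direction in all 130 values. Of these, 107 also kept their side of the threshold, while 13 lost and 10 gained a call. The alternatives refit the same libraries, here and in the Nutlin-3a experiment, so the values are not separate checks. A prior count of 2 left every p-value of the members unchanged. The number of members that were DE, 4 as reported, was 2 with no filter on low counts and 0 to 4 with 1 library left out. The number of all DE genes, 1575 as reported, was 2526 in edgeR's exact test, 3676 at an unadjusted p under 0.05 with a fold above 1.3, and 0 to 2129 with 1 library left out. In the other pathway lists 9 family genes, 17 mitochondrial genes, 10 death receptor genes and 17 regulators were tested. Calls among them were 3 as reported, 6 in DESeq2 and 6 in the exact test, beside 11.0%, 14.4% and 17.6% of all genes. With library totals alone the calls were 5, where 1686 of all genes were DE. In the untreated cells the replicates share only a number: libraries of the same number deviated together at a correlation of 0.49, which with 2 pairs is no evidence of pairing. With the replicate block 4158 of the 14376 tested genes and 7 of 10 members (MCL1, BCL2 and BCL2L11 besides the 4) were DE there. Of the other pathway genes 15 were DE: 6 of 9 family genes, 3 of 17 mitochondrial genes, 3 of 10 death receptor genes and 3 of 17 regulators.

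After Nutlin-3a, 130 of the 135 values of the 9 tested members kept direction and side of the threshold. The count of DE members was also 0 with each library left out. Those fits called only 7 to 11 of all genes, against 23 as reported, so they can say little on whether a member responded. Estimates close to 0 changed sign when a library was left out: BCL2L2, 0.09 as reported, ranged from -0.016 to 0.20, with the negative value without Nutlin-3a replicate 2, and MCL1, -0.03 as reported, ranged from -0.20 to 0.092, with 0.092, 0.018 and 0.075 without DMSO replicate 2, Nutlin-3a replicate 1 and Nutlin-3a replicate 3. All DE genes, 23 as reported, were 87 in DESeq2, 83 in the exact test, 99 with no filter, 332 at an unadjusted p under 0.05 with a fold above 1.3, and 7 to 11 with 1 library left out. In the other pathway lists 8 family genes, 17 mitochondrial genes, 10 death receptor genes and 17 regulators were tested. Calls among them were 1 as reported, 5 in DESeq2 and 5 in the exact test, beside 0.170%, 0.637% and 0.613% of all genes. The calls were 4 with no filter and 0 to 1 with 1 library left out. With the replicate block, which uses the pairing of these libraries, 165 genes were DE, or 1.22% of all genes. Among them were 1 member (BIK) and 5 other pathway genes, and the block changed no other call among the members. The cause of these shifts was not tested. MCL1's share of the summed level moved by less than the spread between replicates with the length of all exons, to 60.3%, 69.9%, 71.4% and 68.1% in MCF10A, G12V, DMSO and Nutlin-3a. Low counts limit BMF, HRK, BCL2L10, BCL2L14 and BCL2L15, each with at most 5 reads in any library of the Nutlin-3a experiment.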
